A study of Mus musculus with 8 samples.

Results

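Glycolysis and the tricarboxylic acid (TCA) cycle were described through 34 genes: glucose and lactate carriers, the enzymes from hexokinase to lactate dehydrogenase, the entry of pyruvate into mitochondria, and the enzymes of the cycle. The genes were listed by their function in these pathways, with earlier results of these data known. Shares set against all tested genes below therefore describe the lists and do not test them. Of the 34, 31 had at least 1 probe set that the platform annotation gives to that gene alone, out of 18193 genes so represented on the array. All 31 lay above the filter on dim values described below and were tested. Gapdh was read only through control probe sets and probe sets shared with other genes, and Gpi1 and Eno1 were not analysed here.

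The cells were lympho-myeloid multipotent progenitors sorted from bone marrow of C57BL6 mice, all female and 8 to 10 weeks old, as lineage-negative cells with Sca-1, c-Kit and CD48 and without CD150. The FLT3-ITD group carried FLT3, a cytokine receptor with tyrosine kinase activity, with an internal tandem duplication, and the other group was wild type. Each genotype had 4 arrays, numbered 1, 2, 3 and a further number 1 tagged 037, called 037 here, a tag whose meaning the sources do not give. The labels give neither the promoter and copy number of the FLT3-ITD allele nor whether each replicate was a mouse of its own, so the p-values cover the spread among these 8 samples alone, which may be technical.

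Glycolysis splits glucose into pyruvate in the cytosol and yields a little ATP without oxygen. Pyruvate is then either reduced to lactate by lactate dehydrogenase and exported, or oxidised by pyruvate dehydrogenase to acetyl-CoA, which the TCA cycle burns to feed the respiratory chain. Quiescent blood stem cells are known for leaning on glycolysis, and multipotent progenitors, which divide more, for drawing more on mitochondria. Several steps are run by isoenzymes from separate genes, which differ in affinity and regulation.

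Values are log2 expression values, so a difference of 1 is a factor of 2 in signal; RMA, the authors' summary of probes, can compress folds at low signal. The brightness of a probe set depends on its probes, so levels of different genes are not ranked against each other. Array medians lay between 5.98 and 6.05, and pairwise correlations between arrays between 0.948 and 0.981. FLT3-ITD 1 stood apart, correlating at 0.948 to 0.960 with the others. FLT3-ITD 037 had the largest 3′ over 5′ gap of the Gapdh controls, at 2.99 beside 1.82 to 2.29 in the other 7 samples. Such a gap can reflect how intact the RNA was or how it was amplified, which were not told apart here. Of the sorting markers, Cd48 read 10.82 to 11.08 in FLT3-ITD and 9.76 to 10.11 in wild type, and was higher (1.06 ± 0.13 SE, limma adjusted p = 0.00740). Kit read 8.77 to 9.29 in FLT3-ITD and 9.28 to 9.80 in wild type (limma adjusted p = 0.427), while Cd34 and Ptprc differed by −0.08 and 0.00. Slamf1, which encodes CD150, read 4.36 to 4.61 in FLT3-ITD and 4.24 to 5.75 in wild type, below the array medians. Flt3 itself read 9.90, 9.13, 9.45 and 9.02 in FLT3-ITD samples 1, 2, 3 and 037, against 10.52, 10.68, 10.55 and 10.41 in wild type (difference −1.17 ± 0.20 SE, limma adjusted p = 0.0406).

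None of the 31 genes passed limma's test at an adjusted p of 0.05, where 0.604% of the 10762 tested genes did (0.427% higher and 0.177% lower). At an unadjusted p under 0.05 there were 5, Hk2, Hk3, Slc2a1 and Fh1 higher and Ldhb lower in FLT3-ITD. That is 16.1% of the 31, against 9.58% of all tested genes (5.74% higher and 3.84% lower). For 2 genes no value of one genotype lay within the other's range, Sdhb (higher) and Ldhb (lower), or 6.45%, against 6.22% of all tested genes (3.77% higher and 2.44% lower). Differences ran from −0.90 for Ldhb to 0.67 for Ogdh, and 27 of the 31 were smaller than 0.5 in size, a share of 87.1% against 89.4% of all tested genes. The sign was positive for 23 of 31, or 74.2%, against 53.7% of all tested genes, and the median difference was 0.14 against 0.02.

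**Figure D1:**
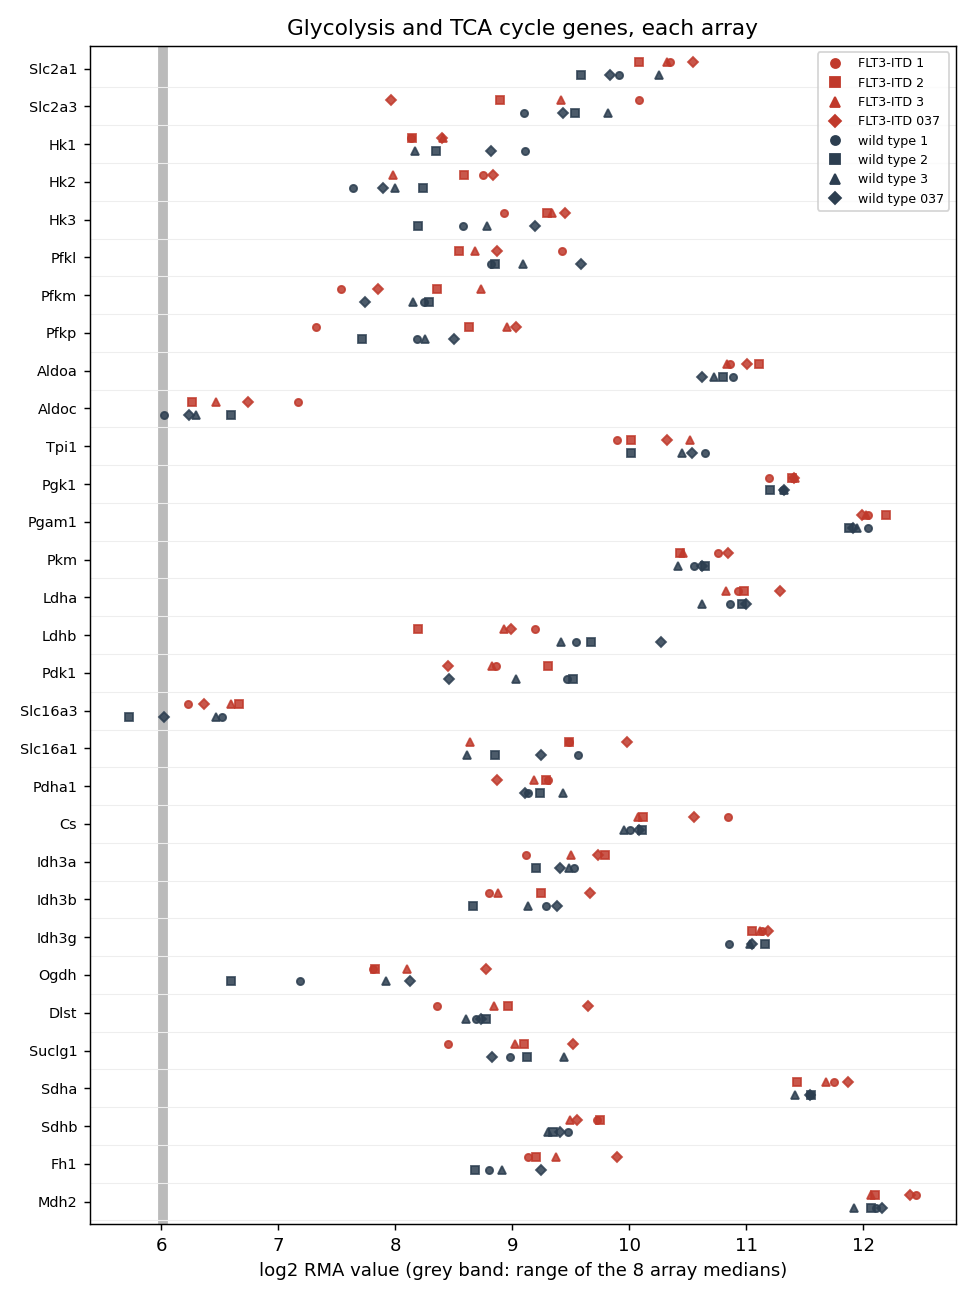
Log2 value of each array (x axis) for the 31 genes, with FLT3-ITD samples in red above wild type samples in dark blue a marker shape per replicate and the range of array medians as a grey band. Ldhb is the gene whose 4 FLT3-ITD points all lie left of the 4 wild type points, and Sdhb the one whose red points all lie to the right.

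The clearest difference among the 31 genes was in lactate dehydrogenase. Ldhb encodes the B (heart-type) subunit, which is known for favouring the conversion of lactate to pyruvate, and Ldha the A (muscle-type) subunit, known for favouring the making of lactate. The RefSeq promoter windows of both genes are shown because the differences of the genes of this 1 enzyme had opposite signs, with that of Hk2, the hexokinase with the largest difference. They run 5′ to 3′ from 250 bases before to 50 after the start, in build GRCm38.p6. Capitals mark the letters ACGTG or GCGTG on either strand, the core bound by the hypoxia factor HIF1.
Ldhb, chr6:142507908-142508207, strand -: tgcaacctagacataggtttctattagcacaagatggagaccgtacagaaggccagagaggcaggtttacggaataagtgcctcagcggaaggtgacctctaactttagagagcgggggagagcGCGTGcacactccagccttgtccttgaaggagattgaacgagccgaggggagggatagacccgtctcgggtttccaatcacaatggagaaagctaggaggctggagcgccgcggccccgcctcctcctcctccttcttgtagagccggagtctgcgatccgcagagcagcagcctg
Ldha, chr7:46845554-46845853, strand +: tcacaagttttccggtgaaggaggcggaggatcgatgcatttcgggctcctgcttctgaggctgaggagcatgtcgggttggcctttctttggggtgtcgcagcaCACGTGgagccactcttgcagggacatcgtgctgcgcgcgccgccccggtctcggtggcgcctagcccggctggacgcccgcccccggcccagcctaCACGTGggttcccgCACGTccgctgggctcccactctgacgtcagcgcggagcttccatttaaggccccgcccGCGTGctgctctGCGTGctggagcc
Hk2, chr6:82774405-82774704, strand -: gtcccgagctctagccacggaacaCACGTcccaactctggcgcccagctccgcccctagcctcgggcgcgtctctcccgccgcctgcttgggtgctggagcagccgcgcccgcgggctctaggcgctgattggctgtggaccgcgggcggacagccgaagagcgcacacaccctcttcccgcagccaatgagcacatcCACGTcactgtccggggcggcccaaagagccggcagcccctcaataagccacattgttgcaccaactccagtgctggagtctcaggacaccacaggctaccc

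The Ldhb window holds 1 match, the Ldha window 7 counted over both strands, and the Hk2 window 2. In Ldha the matches include 2 copies of CACGTG, the E-box letters that MYC and MAX also bind, each counted on both strands. Of the 32 genes of the 34 found in the RefSeq table, 27 had a match in at least 1 of their windows, a share of 84.4%, against 67.2% of tested genes and 46.7% of all genes in the table. By window the shares were 79.6% for the 49 windows of these genes, 61.5% for windows of tested genes and 43.8% for all windows. The letters say nothing about binding in these cells. The window of the second Ldha start in the table holds 2 matches and is not shown, so the Ldha count depends on the start.

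Ldhb read 9.19, 8.19, 8.93 and 8.99 in FLT3-ITD samples 1, 2, 3 and 037, against 9.54, 9.67, 9.42 and 10.27 in wild type samples 1, 2, 3 and 037. The genotypes did not overlap, with FLT3-ITD lower, and FLT3-ITD 2 was the lowest and wild type 037 the highest sample. The means were 8.83 ± 0.44 and 9.72 ± 0.38 (SD, n = 4 each), a difference of −0.90 ± 0.26 (SE) or 0.536-fold (95% interval 0.358 to 0.804). It did not pass over all genes (limma unadjusted p = 0.00693, adjusted p = 0.264), and adjusted p ran from 0.155 to 0.466 over the alternative settings. The other 3 probe sets of Ldhb differed by −0.91, −0.86 and −0.97, and none of the 4 overlapped between genotypes. They target 1 transcript and share the same RNA, so they are not replicates.

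Ldha read 10.92, 10.98, 10.83 and 11.29 in FLT3-ITD and 10.86, 10.96, 10.62 and 11.00 in wild type. The genotypes overlapped, and the difference was 0.14 ± 0.15 (SE; 95% interval −0.19 to 0.48). Taken within each array, Ldhb minus Ldha was −1.73, −2.79, −1.90 and −2.30 in FLT3-ITD and −1.32, −1.29, −1.21 and −0.73 in wild type. All 4 FLT3-ITD values were lower than all wild type values, by 1.04 on average. Most of this shift was the Ldhb difference of −0.90. The exact two-sided permutation test gave p = 0.0286, the smallest 4 against 4 can give, and 0.114 adjusted over the 8 gene pairs compared in this way. With 8 pairs, at least 5 at that smallest p would be needed for any to pass.

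Among the carriers of lactate, Slc16a3 (MCT4, known for exporting lactate from glycolytic cells) differed by 0.28 ± 0.20 and Slc16a1 (MCT1) by 0.33 ± 0.30 (SE), both with overlapping genotypes. Slc16a3 was dim, at 6.23 to 6.66 in FLT3-ITD and 5.73 to 6.52 in wild type. Slc16a1 spread widely within genotypes, at 8.64 to 9.98 in FLT3-ITD and 8.61 to 9.56 in wild type, and its difference was 0.14 without FLT3-ITD 037. Within arrays, Slc16a3 minus Slc16a1 changed by −0.05 (exact permutation p = 0.886), a sign that turned on leaving out single samples.

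**Figure D2:**
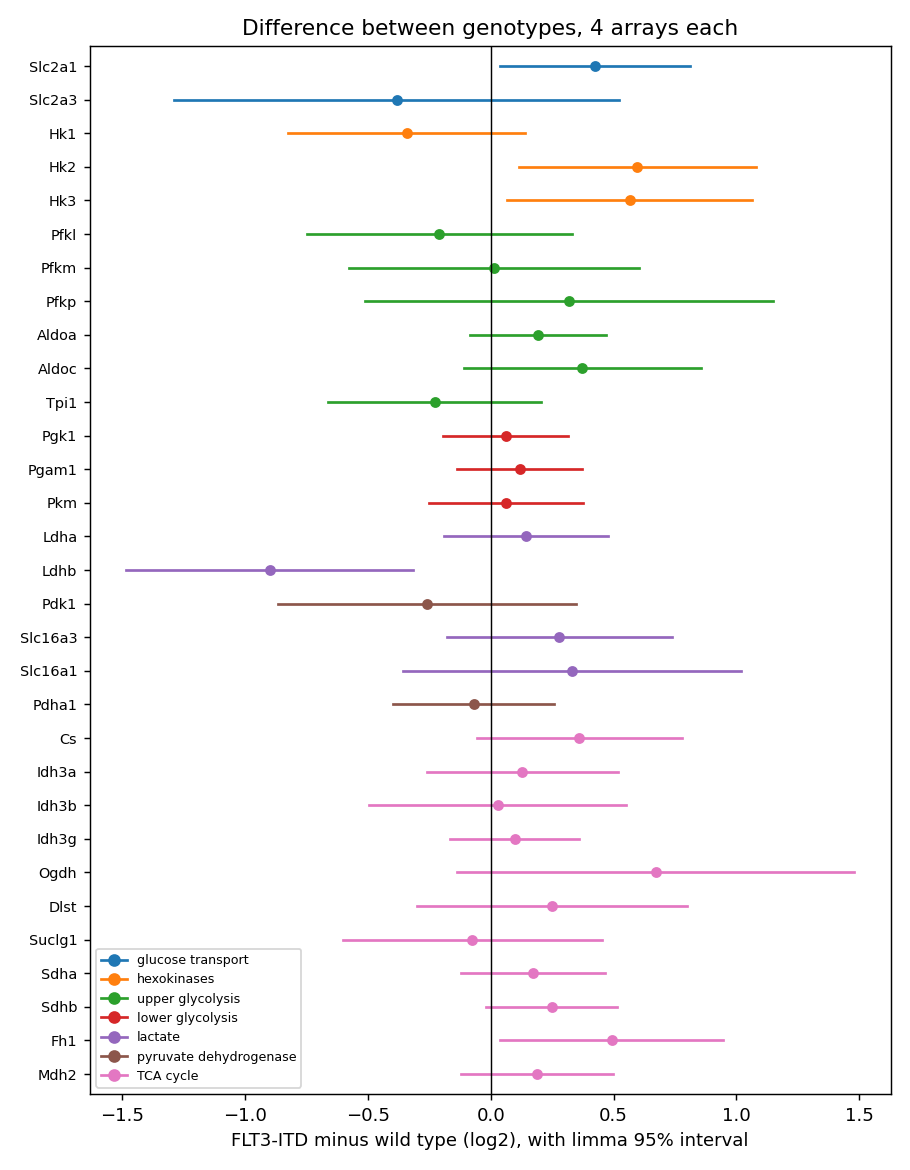
Log2 difference of FLT3-ITD from wild type (x axis) for the 31 genes (points) with limma's 95% interval for each gene alone (lines), coloured by step of the pathway. The intervals of Slc2a1, Hk2, Hk3, Ldhb and Fh1 leave out 0 before adjustment for 10762 genes, and none passes after it.

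Hexokinases trap glucose in the cell by phosphorylating it. Hk1 is the widely expressed form, Hk2 the form known to be induced by growth factors and hypoxia, and Hk3 a form known from myeloid cells. Hk2 read 8.75, 8.59, 7.98 and 8.83 in FLT3-ITD and 7.63, 8.24, 8.00 and 7.89 in wild type. In FLT3-ITD 3 it lay within the wild type range, and in the other 3 FLT3-ITD samples above it. The difference was 0.60 ± 0.21 (SE), a fold of 1.51 (95% interval 1.08 to 2.11; limma unadjusted p = 0.0209, adjusted p = 0.412).

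Hk3 read 8.93, 9.30, 9.34 and 9.45 in FLT3-ITD and 8.58, 8.19, 8.78 and 9.20 in wild type. FLT3-ITD 1 lay among the wild type values, below wild type 037. The difference was 0.57 ± 0.22 (SE; limma unadjusted p = 0.0301, adjusted p = 0.463). Its other probe set differed by 0.46 without overlap, at 8.38 to 8.78 in FLT3-ITD and 7.86 to 8.24 in wild type, and also did not pass (limma adjusted p = 0.372 over 19208 probe sets tested singly). In the same samples the mean over 8 monocyte and macrophage markers was 6.19 to 6.66 in FLT3-ITD and 5.46 to 5.92 in wild type. Only 3 of these markers lay above the filter on dim values, with differences from 0.26 to 3.62 and a median of 0.96. Only 1 of them, Ccr2, passed limma, so the mean does not show a shift shared by all 8. The part of these markers in the Hk3 values was not tested. None of the 71 probe sets of the 31 genes that were tested singly passed. Over all 19208 probe sets tested singly, 57 passed as higher and 23 as lower.

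Hk1 was lower by sign, at 8.13, 8.14, 8.40 and 8.40 in FLT3-ITD and 9.11, 8.35, 8.17 and 8.82 in wild type, a difference of −0.34 ± 0.21 (SE) with overlap, and of −0.18 without wild type 1. Within arrays, Hk3 minus Hk1 was 0.80 to 1.16 in FLT3-ITD and −0.53 to 0.61 in wild type, without overlap. It changed by 0.91 (exact permutation p = 0.0286, adjusted p = 0.114). Hk2 minus Hk1 changed by 0.94 with 1 FLT3-ITD sample among the wild type values (exact permutation p = 0.0857, adjusted p = 0.229).

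**Figure D3:**
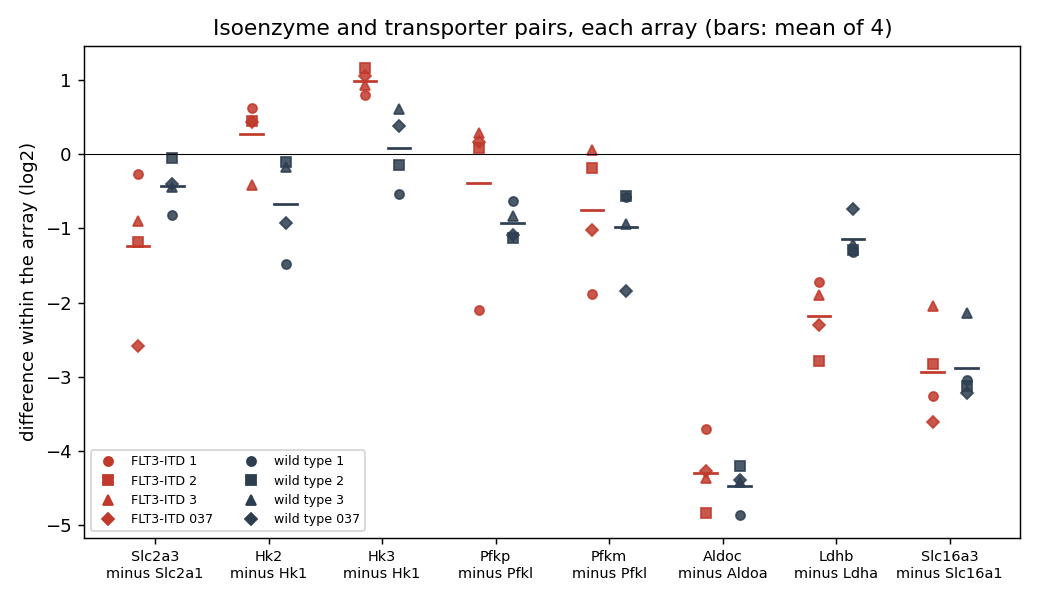
Difference between 2 genes of the same step within each array (y axis, log2) for 8 pairs, with FLT3-ITD in red left of wild type in dark blue and a bar at each mean of 4. Only Hk3 minus Hk1 and Ldhb minus Ldha show no overlap; the height of a pair depends on its probes, so only the shift between genotypes can be read.

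Of the glucose carriers, Slc2a1 encodes GLUT1 and Slc2a3 the high-affinity carrier GLUT3. Slc2a1 read 10.35, 10.08, 10.32 and 10.54 in FLT3-ITD and 9.92, 9.59, 10.26 and 9.84 in wild type. Wild type 3 lay within the FLT3-ITD range and the other 3 wild type samples below it. The difference was 0.42 ± 0.17 (SE), a fold of 1.34 (95% interval 1.03 to 1.75; limma unadjusted p = 0.0345, adjusted p = 0.477). The other 2 probe sets of Slc2a1 differed by 0.41 and 0.35.

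Slc2a3 had the widest spread of the 31 genes within FLT3-ITD, at 10.08, 8.89, 9.42 and 7.96, against 9.10, 9.54, 9.82 and 9.43 in wild type. FLT3-ITD 1 was the highest and FLT3-ITD 037 the lowest of all 8. The difference of −0.38 ± 0.40 (SE) was −0.71 without FLT3-ITD 1 and −0.01 without FLT3-ITD 037. A dimmer probe set of Slc2a3 differed by −0.66 without overlap, and all 4 had a negative sign. Within arrays, Slc2a3 minus Slc2a1 changed by −0.81 (exact permutation p = 0.171), again with overlap.

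**Figure D4:**
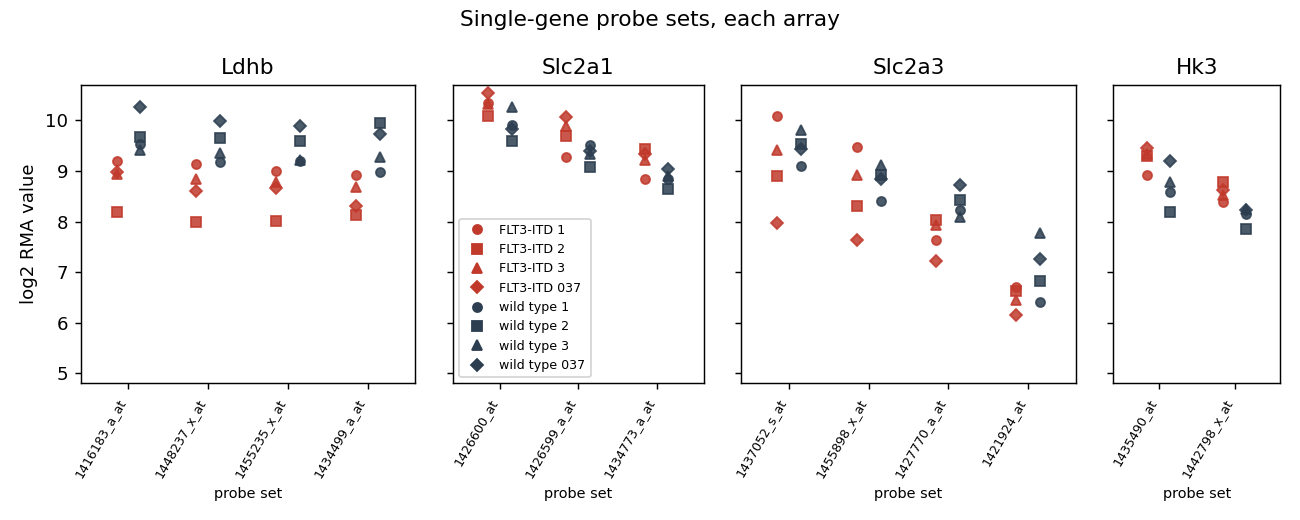
Log2 value of each array (y axis) for every single-gene probe set of Ldhb, Slc2a1, Slc2a3 and Hk3 (x axis), with FLT3-ITD in red left of wild type in dark blue. The 4 probe sets of Ldhb show the same order of genotypes, whereas those of Slc2a3 differ in how far FLT3-ITD 1 and FLT3-ITD 037 lie apart.

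Phosphofructokinase, the committed step of glycolysis, has a liver-type (Pfkl), muscle-type (Pfkm) and platelet-type (Pfkp) subunit. They differed by −0.21 ± 0.24, 0.01 ± 0.26 and 0.32 ± 0.37 (SE), all with overlap. Pfkp read 7.32 in FLT3-ITD 1 and 8.63 to 9.03 in the other FLT3-ITD samples, against 7.72 to 8.50 in wild type, so that without FLT3-ITD 1 the difference was 0.71. Within arrays, Pfkp minus Pfkl was −2.10 in FLT3-ITD 1 and 0.09 to 0.28 in the other 3, against −1.13 to −0.63 in wild type (exact permutation p = 0.486). Pfkm minus Pfkl changed by 0.22 (exact permutation p = 0.686).

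The next enzymes showed small differences. Aldoa, the main aldolase, differed by 0.19 ± 0.12, and Aldoc, a dim isoform known from brain, by 0.37 ± 0.21 (SE), with Aldoc minus Aldoa changed by 0.18 (exact permutation p = 0.514). Triose phosphate isomerase (Tpi1) differed by −0.23 ± 0.19, with 1 of its 3 probe sets of positive sign.

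In lower glycolysis, which yields ATP, phosphoglycerate kinase (Pgk1), phosphoglycerate mutase (Pgam1) and pyruvate kinase (Pkm) differed by 0.06 ± 0.11, 0.12 ± 0.11 and 0.06 ± 0.14 (SE). The 95% intervals of these 3 reached from −0.25 at the lowest to 0.38 at the highest, so a difference of 0.5 lies outside each. Pgam1, a very bright probe set, read 12.04, 12.20, 12.02 and 11.99 in FLT3-ITD and 12.04, 11.87, 11.94 and 11.91 in wild type. Gapdh, the step between aldolase and phosphoglycerate kinase, read 12.87, 12.75, 12.78 and 13.17 in FLT3-ITD on its 3′ control probe set, against 12.76, 12.74, 12.70 and 12.77 in wild type. Its difference was 0.15 ± 0.13 (SE; limma adjusted p = 0.780 with control probe sets kept). The 5′ control differed by −0.20, and the gap between 3′ and 5′ averaged 2.29 ± 0.50 in FLT3-ITD and 1.94 ± 0.12 in wild type (SD, n = 4 each; exact permutation p = 0.2).

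At the gate into mitochondria, Pdha1 encodes a catalytic subunit of pyruvate dehydrogenase and Pdk1 a kinase that switches that enzyme off. Pdha1 differed by −0.07 ± 0.14 and Pdk1 by −0.26 ± 0.27 (SE). Pdk1 read 8.45 to 9.30 in FLT3-ITD and 8.46 to 9.52 in wild type. All 4 probe sets of Pdk1 were negative by sign, from −0.97 to −0.07, each with overlap.

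Of the 11 TCA cycle genes, 10 had a positive difference, or 90.9%, against 53.7% of all tested genes. Their median was 0.19, and 1, Fh1, had an unadjusted p under 0.05, a share of 9.09% against 9.58% of all tested genes. With FLT3-ITD 037 left out 9 of 11 were positive and the median was 0.11, with 51.0% of all tested genes positive. With FLT3-ITD 1 and 037 both left out 9 were positive and the median was 0.06. Read as means over all probe sets of a gene, Sdha (−0.036) and Idh3b turned slightly negative, so the count also depends on the probe set choice. FLT3-ITD 037 was the highest of all 8 arrays for 14 of the 31 genes, and the 3′ to 5′ gap was largest in the same sample. The part of RNA quality or amplification in these values was not tested.

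Fumarase (Fh1), which hydrates fumarate to malate, read 9.13, 9.20, 9.37 and 9.89 in FLT3-ITD and 8.80, 8.68, 8.91 and 9.24 in wild type. Wild type 037 lay above FLT3-ITD 1 and 2, and the other wild type values lay below all of FLT3-ITD. The difference was 0.49 ± 0.20 (SE), a fold of 1.41 (95% interval 1.03 to 1.93; limma unadjusted p = 0.0365, adjusted p = 0.483). In both genotypes 037 was the highest sample, and without FLT3-ITD 037 the difference was 0.33.

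Sdhb, the iron-sulphur subunit of succinate dehydrogenase, read 9.73, 9.75, 9.50 and 9.55 in FLT3-ITD and 9.48, 9.35, 9.30 and 9.40 in wild type. The genotypes did not overlap, but the gap between FLT3-ITD 3 and wild type 1 was small beside the spread. The difference was 0.25 ± 0.12 (SE; 95% interval −0.02 to 0.52; limma unadjusted p = 0.0639, adjusted p = 0.561). Sdha, the flavoprotein subunit of the same complex, differed by 0.17 ± 0.13 (SE) with overlap. Another bright probe set of Sdha differed by only 0.025, and its dim ones, below every array median, by −0.01 and −0.33.

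Ogdh, the first subunit of the 2-oxoglutarate dehydrogenase complex, had the largest positive difference at 0.67 ± 0.36 (SE), with overlap and the widest wild type spread of the 31 genes (6.59 to 8.12). Without wild type 2 it was 0.38, smaller than that of Hk2 or Hk3 under the same omission. Its other probe set differed by 0.06, so the 2 disagree. Dlst, the second subunit of that complex, differed by 0.25 ± 0.24, with FLT3-ITD 037 at 9.65 beside 8.35 to 8.96 in the other FLT3-ITD samples, and by 0.018 without that sample. Citrate synthase (Cs), which starts the cycle, read 10.84, 10.11, 10.08 and 10.55 in FLT3-ITD and 10.00, 10.11, 9.95 and 10.08 in wild type. FLT3-ITD 1 and 037 lay clearly above the wild type values, and FLT3-ITD 2 and 3 at their level. The difference was 0.36 ± 0.18 (SE), and 0.21 without FLT3-ITD 1. Its other 2 probe sets differed by 0.14 and 0.016.

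The remaining enzymes of the cycle differed by less than 0.2. The 3 subunits of NAD-dependent isocitrate dehydrogenase, Idh3a, Idh3b and Idh3g, differed by 0.13 ± 0.17, 0.03 ± 0.23 and 0.10 ± 0.12, and the succinyl-CoA ligase subunit Suclg1 by −0.07 ± 0.23 (SE). Malate dehydrogenase (Mdh2), a very bright probe set, read 12.45, 12.10, 12.07 and 12.39 in FLT3-ITD and 12.11, 12.07, 11.92 and 12.16 in wild type. Its difference was 0.19 ± 0.14 (SE), and its other probe set gave 0.22. Over the 22 genes with more than 1 probe set, 9 had probe sets of both signs.

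Within genotypes the median SD of the 31 genes was 0.31 in FLT3-ITD and 0.25 in wild type, against 0.27 and 0.25 over all tested genes. FLT3-ITD 1 was the lowest FLT3-ITD sample for 13 of the 31 genes and the lowest of all 8 samples for 8. Idh3g had the smallest spread in FLT3-ITD (SD 0.05) and Pgk1 in wild type (SD 0.06).

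Neighbouring genes of the same pathways gave no limma call, where 0.604% of all tested genes had one. Among 11 tested carriers, isoenzymes and regulators of glycolysis outside the 31, 1 was higher and 1 lower at an unadjusted p under 0.05. They made up 18.2% of the 11, against 9.58% of all tested genes. These were Pgam2, a muscle-type mutase, at 0.29 ± 0.13 (limma adjusted p = 0.513), and Pfkfb2, which makes the activator of phosphofructokinase, at −0.57 ± 0.19 (limma adjusted p = 0.381). Of 8 genes of pyruvate entry, Pdp2, a phosphatase that switches pyruvate dehydrogenase on, read 0.42 ± 0.18 and Dld, a subunit of the same complex, −0.45 ± 0.21 (limma adjusted p = 0.508 and 0.551). Of 7 pentose phosphate genes, 6 had a positive difference, or 85.7%, against 53.7% of all tested genes. None had an unadjusted p under 0.05, against 9.58%, with Pgls at 0.29 ± 0.16 and transketolase (Tkt) at 0.25 ± 0.18.

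Of 11 further TCA and connected genes, 6 were positive, or 54.5%, against 53.7% of all tested genes. The largest difference was in Idh1, the cytosolic NADP-dependent isocitrate dehydrogenase, which read 9.15, 8.40, 8.75 and 8.46 in FLT3-ITD and 6.22, 7.90, 7.70 and 8.36 in wild type. All FLT3-ITD values lay above all wild type values, by 1.15 ± 0.42 on average, but wild type 1 was far below the other wild type samples (limma adjusted p = 0.420). Got2, the mitochondrial aspartate aminotransferase, read 0.31 ± 0.17 higher (limma adjusted p = 0.614).

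HIF1 drives many glycolytic genes in low oxygen. A list of 16 genes held HIF factors (such as Hif1a and Epas1), their regulators (such as Egln1, Vhl and Hif1an) and HIF1 targets outside glycolysis. Of its 15 tested genes, 1 was higher and 3 lower at an unadjusted p under 0.05, and none passed limma after adjustment. These 4 are 26.7% of the 15, against 9.58% of all tested genes, and 3 of them, or 20% of the 15, did not overlap, against 6.22%. Vegfa, the vascular growth factor, read 8.84, 8.52, 8.81 and 8.91 in FLT3-ITD and 7.37, 7.60, 8.48 and 8.15 in wild type, without overlap (0.87 ± 0.24, limma adjusted p = 0.247). Ddit4, an inhibitor of mTORC1, read 7.80, 8.38, 8.09 and 8.41 in FLT3-ITD and 8.63, 8.57, 9.24 and 8.86 in wild type, also without overlap (−0.66 ± 0.20, limma adjusted p = 0.301). Bnip3, a mitophagy receptor, was the other gene without overlap, at −0.40 (limma adjusted p = 0.319), and Ankrd37 differed by −0.48 with overlap (limma adjusted p = 0.509). The list thus read in both directions, with a median difference of 0.02. Since it mixes regulators with targets, its shares and median are no readout of HIF1 targets alone.

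Markers of other cell types also differed between the genotypes. For the counts below, limma called 0.427% of all tested genes higher and 0.177% lower. At an unadjusted p under 0.05, 3.84% of all tested genes were lower. Of 10 erythroid markers 5 were tested and 2 were lower in FLT3-ITD by limma, Hbb-b2 at −2.76 ± 0.31 and Slc4a1 at −2.10 ± 0.34 (adjusted p = 0.00576 and 0.0336). The mean over the 8 measured erythroid markers was 6.20 to 6.72 in FLT3-ITD and 6.99 to 7.42 in wild type. Of 10 dendritic cell markers 7 were tested and 5 were higher by limma, from 2.64 for Irf8 to 4.12 for Cd74. These were Irf8 and the MHC class II genes H2-Aa, H2-Ab1 and H2-Eb1 with their invariant chain Cd74. None of the other listed markers, Itgax, Siglech, Xcr1, Clec9a and Zbtb46, was called, and the lowest difference among the 7 tested was −0.02. The mean over 9 measured, which includes the called genes, was 8.44 to 9.50 in FLT3-ITD and 6.40 to 6.65 in wild type. Of 9 monocyte and macrophage markers 3 were tested and 1, Ccr2, was higher, with means over 8 of 6.19 to 6.66 in FLT3-ITD and 5.46 to 5.92 in wild type. Of 10 neutrophil markers 6 were tested and none passed (limma), with 3 lower at an unadjusted p under 0.05 and means over 9 of 5.49 to 7.42 in FLT3-ITD and 6.58 to 7.89 in wild type. Their part in the values of Ldhb, Hk3 and the other genes was not tested, and in these bulk samples fewer cells of a type and less RNA per cell cannot be told apart. The 4 lists of B cell, T and NK cell, megakaryocyte and mast cell or basophil markers had no limma call, with 1 gene of them, Gata2, at an unadjusted p under 0.05 (−0.48 ± 0.17). Their mean levels were 5.22 to 5.26 in FLT3-ITD and 5.08 to 5.35 in wild type for B cells, and 6.08 to 6.36 in FLT3-ITD and 5.84 to 5.97 in wild type for T and NK cells. They were 5.96 to 6.05 in FLT3-ITD and 5.997 to 6.64 in wild type for megakaryocytes, overlapping, and 5.23 to 5.58 in FLT3-ITD and 5.50 to 5.96 in wild type for mast cells and basophils.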

How the data were processed

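Trizol was used to extract total RNA of 8 samples, which a WT-Ovation Pico system then amplified before biotin labelling, per the labels' protocols. Each probe set has a deposited log2 value, which the authors computed with RMA, per the submitters' processing notes, in a version not stated there. Scanner signals were not used here, and the number of arrays limits the precision.

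The table held 45101 probe sets, 64 of them controls. The platform annotation gave 1 gene to 34945, several to 932 and none to 9160, and current symbols were found for 34741 through Entrez IDs in a GRCm38.p6 gene table. Each gene was read from its single-gene probe set of highest mean, controls left out, and tested where 4 or more arrays had it above their median (10762 genes). The genotypes were compared, FLT3-ITD minus wild type, with limma 3.58.1 in R 4.3.3, without covariates, adjusted by Benjamini-Hochberg over all tested genes at 0.05. All limma adjusted p-values come from such fits. The fit was also run on simulated normal noise with planted differences. Only a correlation of estimated with planted differences was required there, so that run does not check the p-values of these samples. Exact permutation tests, two-sided, were run on within-array differences of 8 gene pairs. The members, neighbouring lists and markers were chosen with earlier results of these data known. Named were every member, the gate markers, and from each list the genes past the test or the 2 of smallest p, except that marker lists without a call are given by counts; values per sample were given for members with an unadjusted p under 0.05 or without overlap and for 2 bright probe sets, and other members and neighbours were added after their values were seen. Promoter windows came from RefSeq. Alternatives covered the replicate number, sample 037, normalization, filter, control probe sets, probe set choice, variance model, array weights and each sample. Figures were drawn with matplotlib 3.10.9.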

Additional observations from a re-analysis of the deposited data

Results flagged for a closer look

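Dixon's test on 86 groups of 4 values set 1 sample apart in 5 of them, where chance gives about 1 in 20 groups. Pgk1 was lowest in FLT3-ITD 1 at 11.20, beside 11.39 to 11.41 in the other FLT3-ITD samples, and lowest in wild type 2 at 11.20, beside 11.32 in the other wild type samples. Sdha was lowest in wild type 3 at 11.41, beside 11.54 to 11.55. The balance of Pfkp minus Pfkl was lowest in FLT3-ITD 1 at −2.10, beside 0.09 to 0.28. The balance of Slc16a3 minus Slc16a1 was highest in wild type 3 at −2.14, beside −3.22 to −3.04.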

How the results depend on the processing

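No glycolysis or TCA cycle gene passed limma's adjusted threshold and no gene pair passed the permutation test under any alternative run; with samples 1 and 037 averaged, 3 against 3, the pairs could not pass. Of 617 differences of the 31 genes under alternatives, 599 kept their sign and 18 did not, and 23 genes, among them Ldhb, Hk2, Hk3, Slc2a1, Fh1 and Sdhb, kept theirs throughout. The cause of the sign changes was not tested. Leaving out single samples gave −0.14 to 0.14 for Idh3b, −0.12 to 0.029 for Pdha1, −0.19 to 0.21 for Pfkm, −0.011 to 0.13 for Pkm and −0.24 to 0.12 for Suclg1. In the pairs it gave −0.020 to 0.36 for Aldoc minus Aldoa, −0.066 to 0.60 for Pfkm minus Pfkl and −0.35 to 0.20 for Slc16a3 minus Slc16a1. Without FLT3-ITD 1 and 037 together, chosen after seeing the data, Idh3b gave −0.054, Pdha1 0.0072, Pkm −0.12 and Slc16a1 −0.0051. As means over probe sets, Idh3b gave −0.0015, Pfkl 0.03, Sdha −0.036, Pfkm minus Pfkl −0.014 and Slc16a3 minus Slc16a1 0.10. Array weights gave −0.014 for Pkm, and averaging samples 1 and 037 gave 0.032 for Slc16a3 minus Slc16a1.

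Over all genes 65 passed, 46 higher and 19 lower. Leaving out single samples left 30 to 59 calls, 28 to 45 higher and 2 to 14 lower, and leaving out FLT3-ITD 1 and 037 left 31, 26 higher and 5 lower. The filter at all 8 arrays gave 25 calls, 18 higher and 7 lower, and array weights 30 lower. With the replicate number as a block there were 22, 19 higher and 3 lower. Same-numbered samples deviated together only weakly (r = 0.027, 0.037, 0.065 and 0.110 for 1, 2, 3 and 037), and samples 1, 3 and 037 correlated best with their own number but samples 2 did not, a hint from the data and not the design, so no pairing was assumed.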
